A study of Mus musculus with 4 samples.

Results

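The cytosolic ribosomal proteins are the protein parts of the ribosomes that translate nuclear-encoded mRNA. They were taken as all genes whose symbol on the array platform is Rpl or Rps with a number and at most 1 letter, Rplp0 to Rplp2, or Rpsa, which leaves out mitochondrial ribosomal proteins, S6 kinases and pseudogenes. Of 18193 genes that a probe set of the array names alone, 45 met this rule, 21 of the small and 24 of the large ribosomal subunit, and each is represented by the brightest of its probe sets, judged by the mean of the 4 arrays. A further match, Rps4l, is a transcribed pseudogene in RefSeq and was left out. Of the 45 genes, 43 passed the signal filter and were tested.

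The arrays held RNA of laser-captured Paneth cells, granule-filled cells deep in the crypts of the small intestine, from male NMRI mice aged 8 weeks. Germ-free mice were kept without microbes until they were killed. Conventionalized mice had been germ-free and were then given the intestinal microbes of a conventional donor mouse for 10 days. Each group was 1 pool of equal RNA amounts from 3 mice, and 2 aliquots of 10 ng per pool were amplified separately and put on 1 array each. The study asked how colonization alters Paneth cell gene expression. The 2 arrays of a group are repeat amplifications of the same RNA, so every p-value here sets the difference between pools against amplification and array error, and the spread between mice cannot be had.

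Each ribosome holds 1 copy of nearly every ribosomal protein, so cells make these proteins in matched amounts. Their mRNAs are short, abundant and typically begin with a run of pyrimidines, the 5' terminal oligopyrimidine tract, through which the mTOR pathway controls their translation. Secretory cells such as Paneth cells carry dense rough endoplasmic reticulum, and dividing crypt cells also make many ribosomes.

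Because these genes are known for a pyrimidine run at the transcript start and differed together here, the starts of 8 of them are shown: 4 of the 6 brightest, the next brightest, the gene with the lowest p-value, the S6 kinase substrate Rps6 and the lower-lying Rpl39. Sequences are from RefSeq on GRCm38.p6 and run from 45 bases before to 15 bases from the annotated start. Capitals mark a C and the unbroken C or T bases after it, where at least 4 follow and the C lies within 10 bases of the start.
Rps18: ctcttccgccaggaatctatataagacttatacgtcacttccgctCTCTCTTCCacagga
Rpsa: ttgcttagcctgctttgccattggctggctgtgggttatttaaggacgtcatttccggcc
Rps28: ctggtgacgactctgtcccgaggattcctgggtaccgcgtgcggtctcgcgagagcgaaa
Rpl13a: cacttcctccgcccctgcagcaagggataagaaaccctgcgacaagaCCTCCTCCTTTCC
Rpl35: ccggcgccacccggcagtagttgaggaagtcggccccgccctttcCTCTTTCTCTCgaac
Rpl27a: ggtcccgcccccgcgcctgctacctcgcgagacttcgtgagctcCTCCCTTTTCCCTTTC
Rps6: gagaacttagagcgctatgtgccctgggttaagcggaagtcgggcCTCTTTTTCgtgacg
Rpl39: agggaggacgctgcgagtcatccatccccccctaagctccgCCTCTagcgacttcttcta
These windows lie at chr17:33955651-33955710 (minus strand) for Rps18, chr9:120127721-120127780 (plus) for Rpsa, chr17:33824548-33824607 (minus) for Rps28, chr7:45128731-45128790 (minus) for Rpl13a, chr2:39005117-39005176 (minus) for Rpl35, chr7:109519150-109519209 (plus) for Rpl27a, chr4:86857353-86857412 (minus) for Rps6 and chrX:37085208-37085267 (minus) for Rpl39.

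Rps18, Rpl13a, Rpl35, Rpl27a, Rps6 and Rpl39 hold such a tract and Rpsa and Rps28 do not in these windows. The tracts of Rpl13a and Rpl27a run on past the last base shown. The RefSeq table held promoters of 40 of the 45 genes, and the first listed start was used for the 7 with several. A tract within 10 bases of the start was found in 24 of 40, against 30.8% of the promoters of all 27025 genes in that table. With the C exactly at the annotated start it was found in 8 of 40, against 2.49%. CCGGAAG, the core of ETS factor sites, stood on either strand of the 300-base promoter window in 20 of 40, against 9.12%. The GC box, GGGCGG, was found in 21 of 40 (52.5%, against 35.9%). A TATA box, TATAAA, was found in 4 of 40, against 14.2%. Both were also searched on either strand of that window. The 23 tested genes with a tract near the start had a median log2 difference (conventionalized minus germ-free) of 0.71 and the 15 without it 0.68. After quantile normalization these medians were 0.14 and 0.22.

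The trimmed mean of the deposited signals was 250 on each array, so they were taken as already scaled. Each of the 4 arrays carried the same 45101 probe sets. The upper ends of the arrays differed despite this scaling. The brightest 1 in 1000 probe sets began at 17842 and 36385 on germ-free arrays 1 and 2 and 49201 and 62201 on conventionalized arrays 1 and 2. The fluidics station was 1 for the germ-free and 2 for the conventionalized pair of arrays, and its effect cannot be told apart from that of the group. The ratio of the 3' to the 5' probe set of beta-actin, a measure of how far amplification reached, was 39.2 and 44.9 (germ-free) against 63.7 and 116 (conventionalized), and that of Gapdh was 6.29 and 10.3 against 9.39 and 6.43. Of 20 Paneth cell markers fixed for this work, 11 were tested and all 11 had a higher mean log2 signal in conventionalized cells (2 called, Reg3g and Mptx1). Their median log2 difference was 1.85, and after quantile normalization it was 1.26 with 10 of 11 above 0. Without germ-free array 1 the median was 1.23, and without germ-free array 2 it was 2.42. The 13 markers that a probe set names alone had a summed signal of 68134 and 150760 (germ-free) against 312340 and 687740 (conventionalized). Lyz1, the Paneth cell lysozyme, read 24112, 51494, 80185 and 249594 in that order of arrays. Markers of neighbouring cells were also present. The 13 enterocyte markers summed to 106030 and 191280 against 118450 and 272960, and the 9 goblet cell markers to 51234 and 93512 against 131360 and 221040. No marker of these 3 lists was at 0 on any array.

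Ribosomal protein signals lay among the brightest on the arrays. For the 43 tested genes the mean over the arrays ran from 122 to 81633, with a median of 19276, against 257 for all tested probe sets. Of the 149 tested probe sets above a mean of 20000, 21 were the brightest probe set of such a gene, and 82 named no ribosomal protein. The median gene read 10157 and 19550 (germ-free) against 22696 and 21817 (conventionalized). Germ-free array 1 was thus the low array, and germ-free array 2 lay close to both conventionalized ones. Germ-free array 1 gave the lowest of the 4 values for 36 of the 43 genes. The 45 genes took 2.34% and 3.68% of the summed signal of the germ-free arrays and 4.58% and 5.22% of that of the conventionalized arrays.

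**Figure D1:**
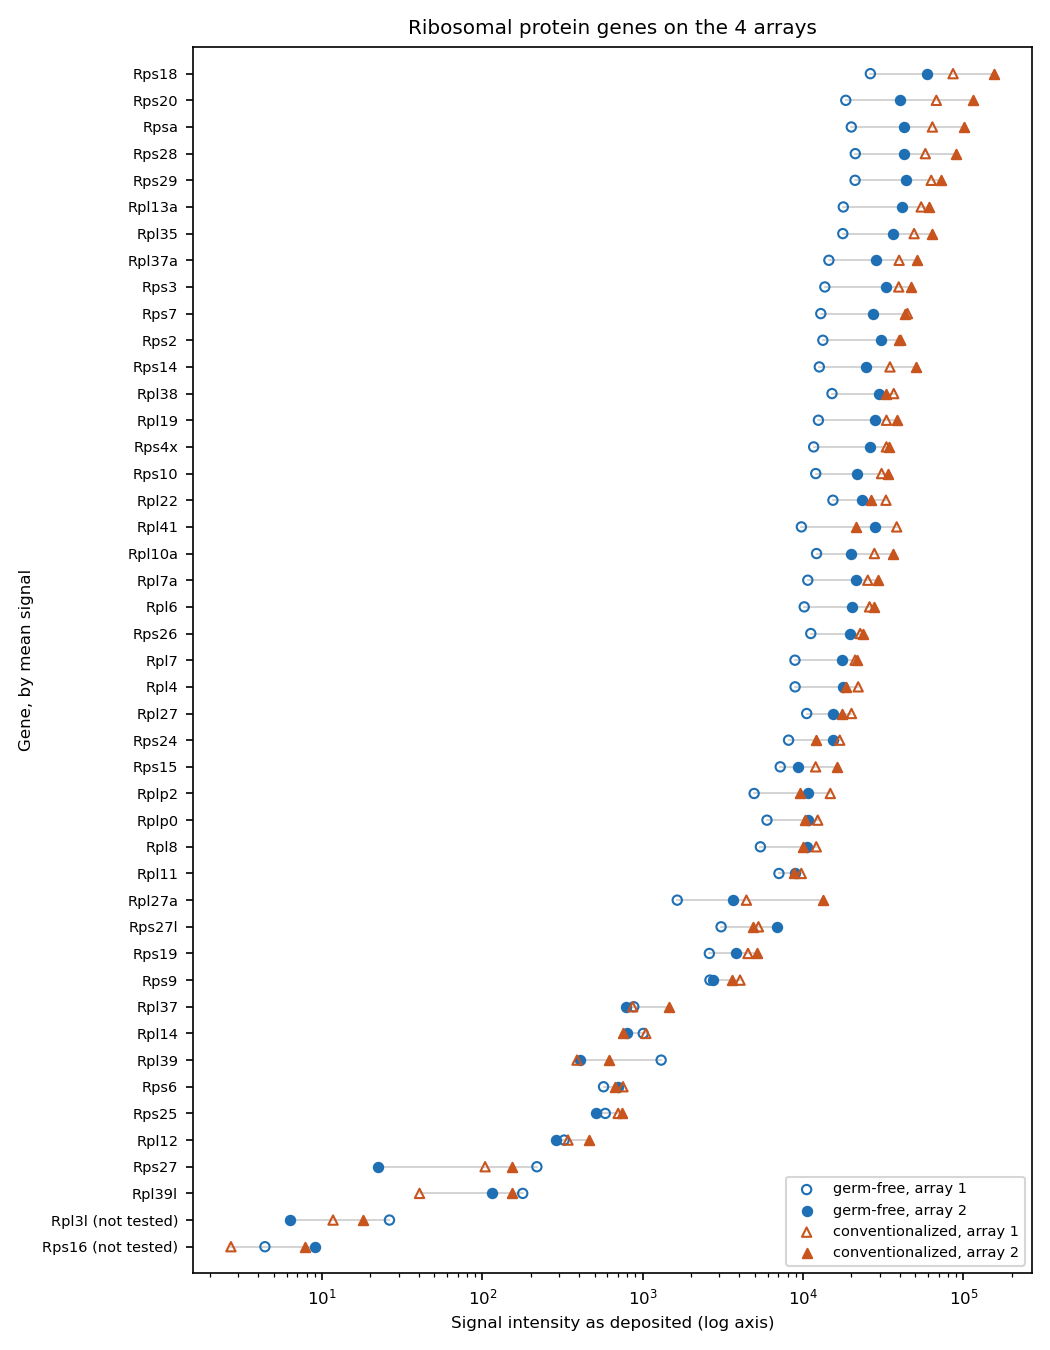
Deposited signal (log axis) of each of the 45 ribosomal protein genes on the 4 arrays, ordered by mean signal; circles are germ-free and triangles conventionalized arrays, open for array 1 and filled for array 2. For 36 of the 43 tested genes the open circle of germ-free array 1 is the lowest of the 4 points.

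At the deposited scaling, ribosomal protein genes were higher in conventionalized cells as a group, and none passed the test alone. No test over the group was made. Of 43 tested, 40 had a log2 difference (conventionalized minus germ-free) above 0, where 50.2% of all 22491 tested probe sets did. Their median difference was 0.77, with an interquartile range of 0.47 to 1.05, against 0.00 for all tested probe sets. In 30 of 43 both conventionalized arrays lay above both germ-free arrays, and in 0 below, where 15.8% and 15.3% of all tested probe sets did. Limma called 0 of the 43, where it called 0.333% of all tested probe sets at an adjusted p under 0.05 (0.12% higher and 0.213% lower). Its unadjusted p was under 0.05 in 1 of the 43, and in 1154 of all 22491 tested probe sets. The fitted standard error is shared by probe sets of like signal and was wide for bright ones, at 0.71 to 1.14 for the 21 genes above a mean of 20000. The small subunit had a median of 0.97 with 20 of 20 above 0, and the large subunit 0.70 with 20 of 23. Without germ-free array 1 the median was 0.39, and without germ-free array 2 it was 1.25.

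Germ-free array 2 exceeded germ-free array 1 by a median log2 of 0.97 over the 43 genes, higher in 36. Conventionalized arrays 1 and 2 exceeded germ-free array 1 by 1.24 and 1.14, but germ-free array 2 by only 0.37 and 0.46. Conventionalized array 2 exceeded array 1 by a median of 0.14, higher in 27 of the 43. Single genes differed between these duplicates by -0.833 to 1.575. The standard deviation of the log2 differences over the 43 genes was 0.82 and 0.85 for conventionalized arrays 1 and 2 against germ-free array 1, where all tested probe sets gave 0.84 and 1.03. Against germ-free array 2 it was 0.33 and 0.54, where all tested probe sets gave 0.77 and 1.09.

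**Figure D2:**
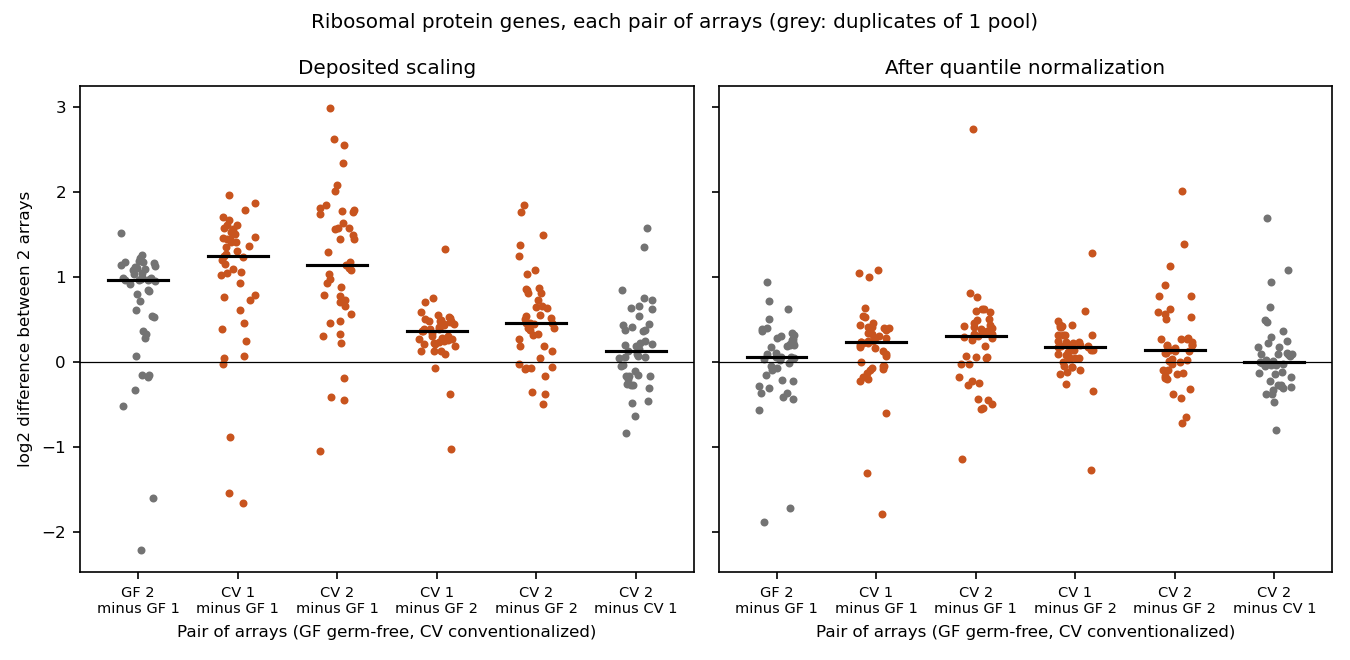
Log2 difference of each of the 43 tested genes (points) between each pair of arrays, with the median as a black line, at the deposited scaling (left) and after quantile normalization (right); grey points are duplicates of 1 pool. At the deposited scaling the germ-free duplicates are 0.97 apart at the median, and after quantile normalization 0.06.

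Among proteins of the small subunit, Rps18 (Entrez Gene 20084), which sits in the head of the subunit, gave the brightest signal. It read 26262 and 59473 (germ-free) against 86113 and 154686 (conventionalized). Both conventionalized values lay above both germ-free ones, and duplicates of each pool lay far apart. The difference was 1.55 ± 1.14 (SE, 2 arrays per group; limma adjusted p = 0.999). Rps20 (67427) read 18446 and 40263 against 67732 and 114029, a difference of 1.69 ± 1.01 (3.22-fold), the highest of the 43 genes. Rpsa (16785), also known as the laminin receptor precursor, read 19975 and 42562 against 63989 and 101362, a difference of 1.46 ± 1.00. The groups of both genes did not overlap. Rps28 read 21150 and 42453 against 57830 and 89781 (1.26 ± 0.99). Rps29 read 21086 and 43733 against 62904 and 72882 (1.16 ± 0.98). Rps14, a gene deleted in the 5q- syndrome of human bone marrow, read 12617 and 24699 against 34790 and 50889 (1.25 ± 0.80). These 3 genes repeated the order of Rps18, with germ-free array 1 lowest and conventionalized array 2 highest.

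Rps4x, an X-linked small subunit protein, read 11631 and 26112 against 33050 and 34545, a difference of 0.95 ± 0.77. Here the conventionalized duplicates were close together and the germ-free duplicates were not. Rps6, the S6 kinase substrate, was dim on the probe sets that name it alone. The brightest of them read 569 and 701 against 752 and 669, a difference of 0.16 ± 0.44 with overlapping groups. The 10 other small subunit genes, not given one by one, differed by 0.35 to 1.22 with a median of 0.71.

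In the large subunit the brightest gene was Rpl13a (22121), often used as a reference gene and known for its release from the ribosome after interferon treatment. It read 17804 and 41576 (germ-free) against 54453 and 60816 (conventionalized), a difference of 1.08 ± 0.93 without overlap. Rplp0 and Rplp2 are parts of the ribosomal stalk, which recruits elongation factors. Rplp0 read 5948 and 10663 against 12329 and 10212 (0.49 ± 0.56). Rplp2 read 4948 and 10669 against 14771 and 9496 (0.70 ± 0.56). For both stalk genes germ-free array 2 lay above conventionalized array 2, so the groups overlapped. Rpl22, which also binds viral and cellular RNAs, read 15342 and 23415 against 32852 and 26628 (0.64 ± 0.76). Rpl11, which binds the p53 regulator Mdm2, read 7064 and 8860 against 9736 and 8717 (0.22 ± 0.55). The 14 other large subunit genes, not given one by one, differed by 0.35 to 1.15 with a median of 0.79.

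Rpl27a (26451), a large subunit protein, had the second highest difference of the 43 genes at a far lower signal than the others near it in rank. It read 1640 and 3643 (germ-free) against 4429 and 13261 (conventionalized), so that conventionalized array 2 lay far above the other 3. The difference was 1.64 ± 0.47 (limma adjusted p = 0.087), the lowest p-value among the 43, and 0.86 above the family median. This standard error is the one shared by probe sets of like signal and does not reflect the spread of Rpl27a itself. Its duplicates lay 1.14 (germ-free) and 1.58 (conventionalized) apart on the log2 scale. The difference depended on single arrays. It was 0.85 without conventionalized array 2 and 2.42 without conventionalized array 1. Without germ-free array 2 it was 2.20 and was called (limma adjusted p = 0.0075). The other probe set of Rpl27a lay under the signal filter. After quantile normalization Rpl27a differed by 1.53 ± 0.44, while the other 5 of the 6 highest genes lay between -0.40 and 0.41.

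The 6 lowest differences were those of Rpl39l, Rpl39, Rpl14, Rps27l, Rps6 and Rpl11. All of these but Rpl11 were dim probe sets or paralogs. Rpl39, a small protein of the exit tunnel, read 1301 and 408 against 389 and 615, a difference of -0.55 ± 0.45. Germ-free array 1 alone was high, and without it the difference was 0.24. Rpl39l, its paralog known from testis, read 178 and 115 against 40.5 and 153 (-0.60 ± 1.01), near the signal filter of 113.9. Rpl14 read 1006 and 792 against 1044 and 750, a difference of -0.01 ± 0.42 within the spread of each pair of duplicates. Rps27 read 219 and 22.2 against 104 and 152 (0.44 ± 1.08) on the probe set that names it alone. Its p53-induced paralog Rps27l was brighter, at 3078 and 6862 against 5265 and 4879 (0.14 ± 0.48). Rps27l was the sole tested gene with germ-free array 2 the highest of the 4. Rpl3l, a paralog known from striated muscle, read 26.3 and 6.30 against 11.7 and 17.9 and was not tested. Rps16, also not tested and named after its values were seen, has 1 probe set that names it alone, which lay under the pseudocount of 32 on every array. Rpl3, Rpl10, Rpl32, Rplp1, Rps27a, Rpl10l and Rpl36al have no probe set that names them alone here.

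The 45 genes have 99 probe sets that name them alone, of which 86 were tested. The 43 tested ones beyond the brightest of each gene had a median difference of 0.67, with 37 of 43 above 0. Of 19 genes with several tested probe sets, 14 had all of them on 1 side of 0. The 5 others, named after their values were seen, were Rpl41, Rps10, Rps24, Rps3 and Rps9, with a range from -1.54 to 0.70 in Rps9. Another 110 probe sets name a gene of this family together with other genes and stand for mixtures. Of these, 102 were tested, with a median of 0.73 and 93 above 0. Among the 43 genes, 32 have a probe set with the suffix x, s or a, and their median was 0.82. Not all of these suffixes mark probes that can bind transcripts of other genes. The 11 with a plain probe set had 0.38, and most of these had a mean signal under 1000. After quantile normalization both medians were 0.22.

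The size of the difference went with signal. Across the 43 genes, which share the same 4 arrays, Pearson's r between log2 mean signal and log2 difference was 0.775 and Spearman's rho 0.862. The 21 genes above a mean signal of 20000 had a median difference of 1.03, and the 12 between 5000 and 20000 had 0.60. The 8 under 1000 had 0.26. Probe sets of other genes showed a like trend at the bright end only. The 82 above 20000 had a median of 0.83, with 93.9% above 0, and the 496 between 5000 and 20000 had 0.16. The 2266 between 1000 and 5000 had -0.03. At each of these levels, then, ribosomal protein genes lay above the other probe sets, by less at the top than in the middle.

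**Figure D3:**
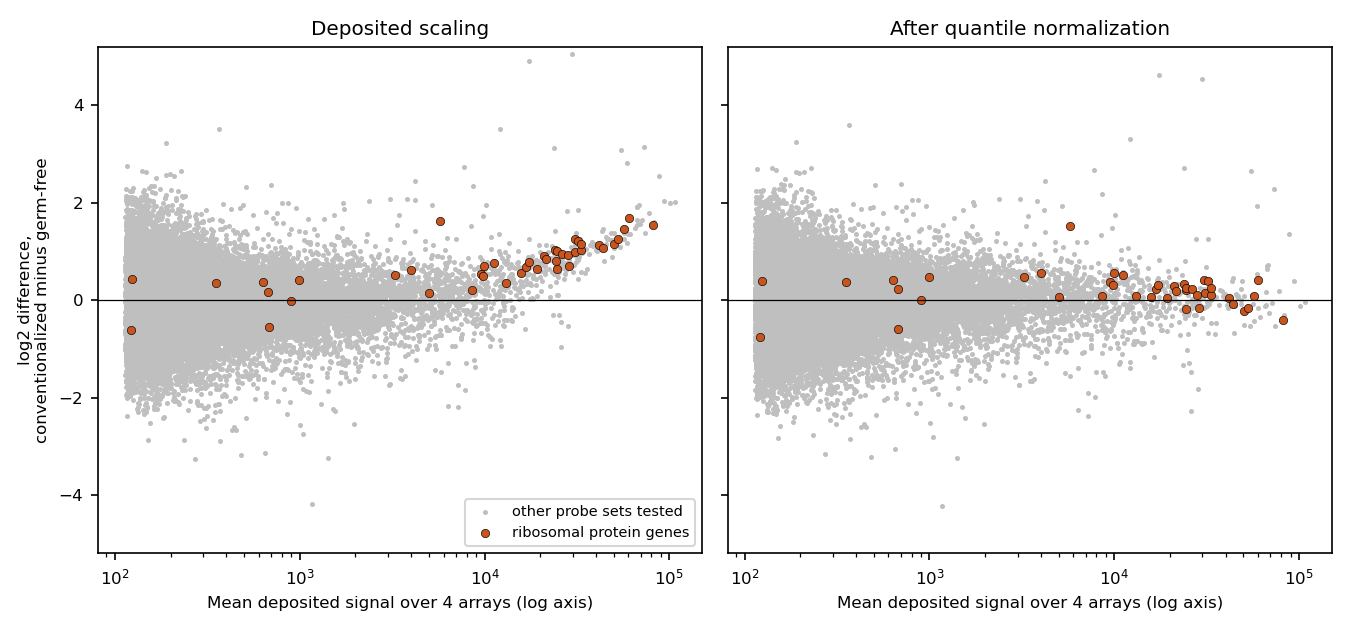
Log2 difference (conventionalized minus germ-free) against mean deposited signal (log axis) for all 22491 tested probe sets, at the deposited scaling (left) and after quantile normalization (right); orange points are the 43 ribosomal protein genes. At the deposited scaling 93.9% of the 82 other probe sets above a signal of 20000 lie above 0, and after quantile normalization the median of the 43 genes is 0.22.

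Quantile normalization gives every array the same set of values and so removes any shift that bright probe sets share. After it the median difference of the 43 genes was 0.22, with an interquartile range of 0.06 to 0.38, against -0.03 for all tested probe sets. Of the 43, 35 were above 0, where 47.5% of all probe sets did. The groups did not overlap in 22 of the 43 with conventionalized cells higher, and in 3 with them lower, where 16.8% and 17.8% of all tested probe sets did. Limma called 0 of the 43, where it called 0.147% of all tested (0.0622% higher and 0.0845% lower). Its unadjusted p was under 0.05 in 2 of the 43, and in 1301 of all 22491 tested probe sets. The 4 comparisons of a conventionalized with a germ-free array gave family medians of 0.14, 0.17, 0.24 and 0.31. Duplicates (array 2 minus array 1) differed by a median of 0.06 in the germ-free and of 0.00 in the conventionalized pool. Single genes ran from -1.885 to 0.941 between the germ-free and from -0.796 to 1.697 between the conventionalized duplicates. Above a signal of 20000 the 21 genes had a median of 0.14 against -0.04 for the 82 other probe sets, and between 5000 and 20000 the 12 had 0.28 against -0.04 for 496. With 1 array left out after this normalization the family median was 0.19 to 0.29. Cyclic loess, which fits the shift along signal more loosely, gave a median of 0.44 with 38 of 43 above 0, where 50.4% of all probe sets were. Above a signal of 20000 it left a median of 0.49 for the 21 genes and 0.34 for the 82 other probe sets. Between 5000 and 20000 these medians were 0.23 and -0.10.

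Of the 6 brightest genes, Rps20 alone had conventionalized values above both germ-free values after quantile normalization. Rps18 came to -0.40 ± 0.19, on log2 values of 16.72 and 16.90 (germ-free) against 16.64 and 16.18 (conventionalized). Both conventionalized values were then the lower ones. Rps28 came to -0.15, Rps29 to -0.22, Rpl13a to -0.08 and Rpl22 to -0.18. Rps20 differed by 0.41 ± 0.18, on 15.50 and 15.61 against 16.04 and 15.90. Rps14 differed by 0.41 without overlap. Rpsa differed by 0.09 ± 0.18, and its groups then overlapped. In the stalk, Rplp2 differed by 0.55 and Rplp0 by 0.32, and neither gene's groups overlapped any longer. The small subunit had a median of 0.22 with 17 of 20 above 0, and the large subunit 0.22 with 18 of 23.

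**Figure D4:**
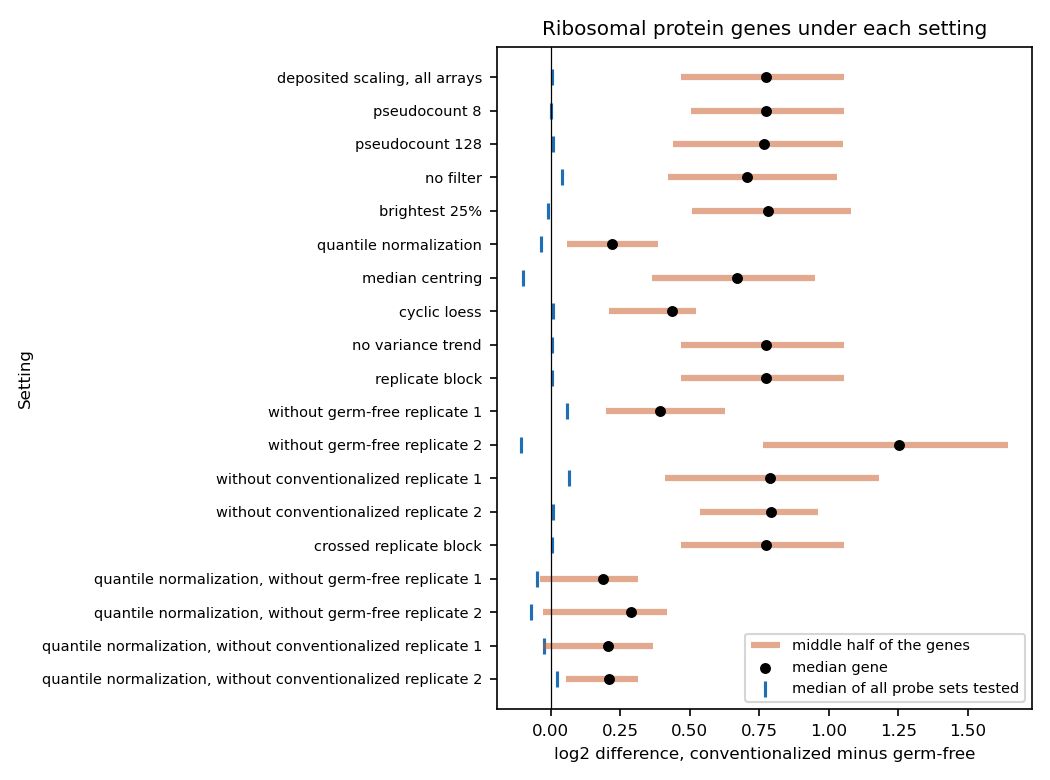
Log2 difference (conventionalized minus germ-free) over the ribosomal protein genes under each setting: black points are the median gene, orange bars the interquartile range over genes, and blue ticks the median of all probe sets tested. The median gene lies above 0 in every setting shown, from 0.19 to 1.25.

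Other translation genes were compared by the same test. Among ribosomal proteins that the naming rule misses, 4 were tested. Rps3a1, of the small subunit, read 8006 and 18138 against 24095 and 18091 (0.79 ± 0.66), germ-free array 2 and conventionalized array 2 being nearly equal. Fau, which encodes a ubiquitin-like protein fused to a small subunit protein, differed by 0.29 ± 0.46. The paralogs Rpl22l1 and Rpl7l1 differed by 0.42 ± 0.42 and 0.59 ± 0.42. All 4 stayed above 0 after quantile normalization.

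Mitochondrial ribosomal proteins, which serve the separate ribosomes of mitochondria and are far dimmer (median mean signal 805), had a median of 0.24 with 64 of 76 above 0. After quantile normalization the median was 0.28, again with 64 of 76 above 0. None was called. Mrpl39 differed by 0.75 ± 0.61, Mrpl52 by 0.90 ± 0.49 and Mrpl51 by -0.09 ± 0.49. Without germ-free array 1 the median was 0.09.

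Translation initiation factors bring ribosomes to mRNA. Of 33 tested, 26 were above 0 with a median of 0.36 (0.28 after quantile normalization, 0.02 without germ-free array 1), and none was called. Eif4g2 differed by 0.54 ± 0.67, Eif4h by 0.36 ± 0.63 and Eif3f by 0.42 ± 0.62. Of 13 elongation and termination factors, 8 were above 0 with a median of 0.08 (-0.02 after quantile normalization). Leaving out 1 array moved this median between -0.15 (germ-free array 1) and 0.51 (germ-free array 2, and likewise conventionalized array 2). Etf1, the release factor that recognizes stop codons, was called higher. It read 167 and 543 (germ-free) against 1238 and 1053 (conventionalized), a difference of 1.80 ± 0.45 (limma adjusted p = 0.023). Its call was lost with quantile normalization, although the difference was then 1.92. It was also lost without germ-free array 1, where the difference was 1.03, and without either conventionalized array (1.68 and 1.91). Tpt1 and Eef1a1, whose mRNAs also begin with a pyrimidine tract, were the brightest of this list. Tpt1 read 19569 and 46346 against 63494 and 96913 (1.38 ± 1.00, and -0.09 after quantile normalization). Eef1a1 read 15287 and 26499 against 28452 and 31496 (0.57 ± 0.77, and -0.25). The 21 ribosomal protein genes above a signal of 20000 had a median of 1.03 at the deposited scaling. Tpt1 lay above this median and Eef1a1 below it. Eef1b2 differed by 0.69 ± 0.68.

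Of 86 ribosome assembly factors, 56 were above 0, with a median of 0.22 (0.25 after quantile normalization, 0.09 to 0.31 with 1 array left out) and none called. Npm1, a nucleolar chaperone, read 5340 and 14544 against 18601 and 10761 (0.68 ± 0.59), which came to -0.04 without germ-free array 1. Bms1 differed by -0.01 ± 0.58 and Tsr1 by 0.46 ± 0.50. Of 12 tested genes of RNA polymerase I, which transcribes ribosomal RNA, 10 were above 0 with a median of 0.17 (0.02 to 0.39 with 1 array left out) and none was called. Polr1d differed by 0.08 ± 0.44, Taf1d by 0.39 ± 0.42 and Twistnb by 0.13 ± 0.42.

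Of 19 genes of translation control, 11 were above 0 with a median of 0.15 and none called. Without germ-free array 1 this median was -0.05 and without conventionalized array 1 it was -0.13. Eif4ebp1, a repressor of cap-dependent initiation released by mTOR, read 1927 and 2551 against 5105 and 5073, a difference of 1.19 ± 0.45 that did not pass (limma adjusted p = 0.50). Its groups did not overlap, and the difference was 1.16 after quantile normalization. Rheb, the activator of mTOR, differed by 0.40 ± 0.43 and Pdcd4, an inhibitor of initiation, by 0.15 ± 0.42. Of 17 cytosolic aminoacyl-tRNA synthetases, 12 were above 0 with a median of 0.06 (-0.05 without conventionalized array 1, 0.30 without germ-free array 2) and none called, among them Qars at 0.35 ± 0.50, Farsb at 0.27 ± 0.48 and Nars at 0.30 ± 0.46. Among the 7 other reference genes 3 were above 0 (median -0.01), and after quantile normalization 1 was (median -0.14). Their median was -0.29 without germ-free array 1 and 0.47 without germ-free array 2. Pgk1 differed by 1.02 ± 0.91 (-0.17 after quantile normalization), B2m by -0.01 ± 0.58 and Actb by 0.04 ± 0.50.

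**Figure D5:**
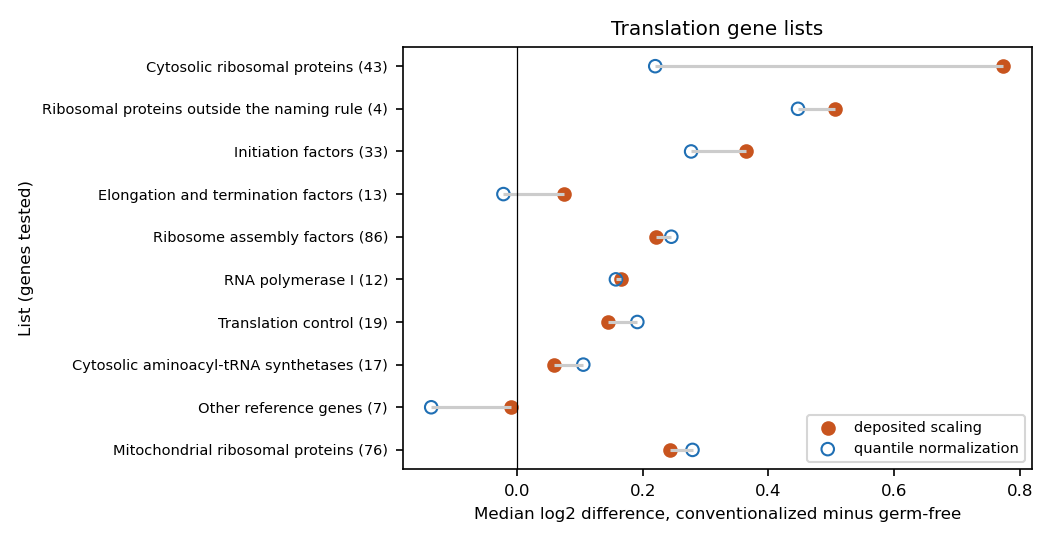
Median log2 difference (conventionalized minus germ-free) of the ribosomal protein genes and of the other translation gene lists, with the number of genes tested in parentheses; filled points are at the deposited scaling and open points after quantile normalization. The ribosomal protein median goes from 0.77 to 0.22, while that of the mitochondrial ribosomal proteins goes from 0.24 to 0.28.

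Marker lists of other cells lay on both sides of 0, and each is given with its range when 1 array is left out. The proliferating cell list had a median of 0.40 with 15 of 18 above 0 (0.44 after quantile normalization, 0.17 to 0.81 with 1 array left out) and none called, with a summed signal of 23500 and 32578 (germ-free) against 46085 and 32448 (conventionalized). The median was -0.22 for stem cell markers, with 3 of 7 above 0 (-0.29 to -0.17). Enterocyte markers had a median of -0.52 with 3 of 13 above 0 (-0.82 to 0.06). It was -0.67 without germ-free array 1 and -0.08 without germ-free array 2. Without conventionalized array 1 the median turned to 0.06, and without conventionalized array 2 it was -0.82. Goblet cell markers had one of 0.60 with 7 of 9 above 0 (0.43 to 1.14, the highest without germ-free array 2). The 9 enteroendocrine markers had a median of -0.24 (-0.46 to -0.08), and the 7 fibroblast and muscle markers -0.32 (-0.50 to -0.0038). The 5 plasma and B cell markers had a median of 0.54 (0.34 to 0.63), and the 5 T and myeloid markers 0.77 (0.32 to 1.14). Limma called the goblet marker Retnlb and the plasma cell marker Igha higher and the enterocyte marker Apoc3 lower. After quantile normalization no enterocyte marker was called. The medians were then -0.26 (stem), -0.58 (enterocyte), 0.40 (goblet), -0.22 (enteroendocrine), -0.39 (fibroblast and muscle), 0.35 (plasma and B) and 0.76 (T and myeloid). The part of cell makeup in the ribosomal protein difference was not tested. In such samples more cells of a type and more RNA per cell cannot be told apart.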

How the data were processed

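The labels describe pools of RNA from 3 mice, amplified from aliquots of 10 ng with the RiboAmp HS kit and labelled with biotin for Affymetrix arrays. Intensities were deposited by the authors on a linear scale, 1 for each probe set of an array. Its trimmed mean (2% off each end) was 250 on every array, so it was taken as scaled. Software and genome build: not given in the sources used here. Symbols came from the platform annotation, in which 34958 probe sets named 1 gene, 932 several and 9211 none. All 45 members' gene identifiers were in RefSeq GRCm38.p6. Scanner files were read for batches only.

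Intensities became log2(intensity + 32), the power of 2 next above their 20th percentile, which understates changes of dim probe sets. Probe sets above the median mean signal of 113.9 were tested, without 64 array controls. The comparison of groups used limma 3.58.1 under R 4.3.3 (eBayes with trend, infinite prior and 2 residual degrees of freedom), tested on simulated data, with Benjamini-Hochberg adjustment over 22491 probe sets and calls at 0.05. The simulation drew independent noise for each probe set and array. It held no shift shared by bright probe sets, so it could not check calls under one. The number of arrays limits the precision. Members and lists were chosen with earlier results of these data known.

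Genes named with all values were the 6 brightest, 6 highest and 6 lowest members, called ones, and fixed genes of special role. Of the other translation lists the 3 brightest and called genes were named, while cell type lists are given by counts, with called genes named. Alternatives were pseudocounts 4 times lower or higher, no filter, the brightest 25%, quantile normalization, median centring, cyclic loess, no trend, a replicate block, each array left out, other probe set rules and, added after seeing the data, quantile normalization with 1 array left out and a crossed block.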

Additional observations from a re-analysis of the deposited data

Results flagged for a closer look

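Of the array's own control probe sets, which were left out of the tests, the 3 for 18S ribosomal RNA and 1 of 3 for mouse repeats lay higher on both conventionalized arrays than on both germ-free arrays. The 3 controls for 18S ribosomal RNA, the RNA of the small ribosomal subunit, differed by 1.66 (3' probe set), 0.91 (middle) and 1.15 (5' probe set) on the log2 scale. The 3' probe set read 1860 and 2899 (germ-free) against 5868 and 9414 (conventionalized), and its difference stayed at 1.62 after quantile normalization. The brightest control for the B2 repeat differed by 1.25, on 19747 and 45417 against 56781 and 89535, and came to -0.21 after quantile normalization. The groups of the other B2 control (0.14) and of the B1 control (-0.22) overlapped. The order of the 4 arrays in the brightest B2 control was that in Rps18. Other controls went the other way. The 5' control of beta-actin (-0.84) and the middle control of Gapdh (-0.56) lay lower on both conventionalized arrays than on both germ-free arrays. The groups of the other beta-actin and Gapdh controls overlapped. These differences have no test of their own.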

How the results depend on the processing

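With pseudocounts 4 times lower or higher, no filter and the brightest 25% of probe sets, the median of the ribosomal protein genes was 0.71 to 0.78. Over all tested probe sets limma called 27 higher and 48 lower. Quantile normalization gave 14 and 19 with a ribosomal protein median of 0.22, median centring (which shifted all probe sets by -0.10) 3 and 19, and cyclic loess 15 and 16. Without the variance trend limma called 0 and 0, where 975 probe sets had an unadjusted p under 0.05. With 1 array left out there were 14 to 34 higher and 7 to 181 lower calls, 0 to 1 ribosomal protein genes called, and medians of 0.39 to 1.25. After quantile normalization, calls without germ-free array 1 were 34 and 31 (median 0.19), without germ-free array 2 42 and 47 (0.29), without conventionalized array 1 28 and 106 (0.21) and without conventionalized array 2 7 and 14 (0.21), with 1 ribosomal protein gene called in each of the middle 2 of these settings. The mean of all probe sets of a gene gave 1 called gene, and plain probe sets alone 13 genes above 0 of 19.

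With the replicate number as a block limma called 13 higher and 17 lower, and no ribosomal protein gene. Same-numbered arrays come from different pools, and their deviations correlated at -0.132. The crossed block gave 71 higher and 157 lower calls, 1 of them a ribosomal protein gene.

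Of 19 ribosomal protein genes followed one by one, 11 changed sign in at least 1 setting. After quantile normalization this was Rps18 (-0.40), Rps29 (-0.22), Rpl22 (-0.18), Rps28 (-0.15), Rpl13a (-0.084) and Rpl14 (0.0011). Other genes that did so were Eef1a1 (-0.25), Pgk1 (-0.17), Lyz1 (-0.12), Tpt1 (-0.087), Actb (-0.040) and Eif4h (-0.039). With cyclic loess the sign changed for Rpl14 (0.054), Rpl11 (-0.053), Rps27l (-0.0005), Actb (-0.14) and Eif4h (-0.014), and with median centring Actb (-0.066) and Polr1d (-0.023). With 1 array left out, the range crossed 0 for Rpl39 (-1.35 to 0.24), Rpl39l (-1.28 to 0.074), Rps27 (-0.66 to 1.55), Rps27l (-0.43 to 0.71), Rpl14 (-0.24 to 0.22) and Rpl22l1 (-0.11 to 0.96). It also did for Actb (-0.39 to 0.47), B2m (-0.29 to 0.27), Bms1 (-0.41 to 0.39), Farsb (-0.047 to 0.59), Mrpl51 (-0.51 to 0.32), Nars (-0.012 to 0.60), Npm1 (-0.040 to 1.40), Pdcd4 (-0.061 to 0.35), Polr1d (-0.32 to 0.49), Rheb (-0.13 to 0.93), Taf1d (-0.060 to 0.83) and Twistnb (-0.21 to 0.48). The causes were not tested.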
